A study of Mus musculus with 4 samples.

Results

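Committed oligodendrocyte precursors were taken as cells in which Gpr17 counts outweigh Pdgfra counts, in MERFISH data of 4 coronal mouse brain sections through the striatum. MERFISH counts single mRNA molecules in tissue by imaging, and here it covered 383 genes. A cell was a member when at least 3 of the precursor genes Pdgfra, Gpr17, C1ql1, Tnr and Olig1 were detected and their sum made up at least 5% of its transcripts. It also had to hold at least 5 Gpr17 transcripts and at least 2 times as many Gpr17 as Pdgfra transcripts, with the mature oligodendrocyte genes Mal and Trf together under 3%. The members were thus selected on measured values of these 7 genes. In all, 1020 of 281824 kept cells met the rule. C57BL/6NTac mice were compared at 2 months (young, 2 sections) and at 18 months (aged, 2 sections), with no treatment or transgene in either group and no sex given for these sections. Each section was a fresh-frozen slice of 10 µm and counted as 1 sample, and p-values over sections measure only the spread between these 4 sections.

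Oligodendrocyte precursors carry the PDGF receptor alpha, encoded by Pdgfra, and divide in response to its ligand. When a precursor commits to differentiation it loses this receptor and passes through a short stage that carries GPR17, a G protein-coupled receptor that must be turned off again before myelin is made. Precursors remain in the adult brain in grey and white matter, and some of them go on to form new oligodendrocytes.

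Kept cells numbered 68011 and 70774 in the young sections, against 68415 and 74624 in the aged sections. The mean kept cell held 529.8 and 440.4 transcripts in the young sections but 274.3 and 388.7 in the aged sections, so the aged sections were the shallower ones. The sections shared 0 cell identifiers. Since the rule asks for a fixed number of Gpr17 transcripts, counts of members are given below with depth equalised as well.

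Committed precursors were fewer at 18 months. The young sections held 398 and 372 of them, and the aged sections held 154 and 96. As a share of kept cells, this was 0.585% (95% Wilson interval 0.531 to 0.645) and 0.526% (0.475 to 0.582) at 2 months. At 18 months it was 0.225% (0.192 to 0.264) and 0.129% (0.105 to 0.157). These intervals cover counting error only. The groups did not overlap, and the mean was 0.555% ± 0.0421 (SD, n = 2) in young against 0.177% ± 0.0682 (n = 2) in aged sections, a ratio of 3.14. The two-sided exact permutation test gave p = 0.333, the smallest value that 2 sections against 2 allow, and 0.433 after adjustment over the 52 measures compared between ages. Of these 52 measures, many of them on the same cells, 40 did not overlap between ages.

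Per area, the young sections held 11.7 and 9.30 committed precursors per mm² and the aged sections 4.11 and 2.47. Thinning every section to the depth of the shallowest before applying the rule left a ratio of 2.81. Thinning every cell to 100 transcripts, with a Gpr17 minimum of 2, lowered the ratio to 1.98. That setting left out 8566 and 12057 young cells and 15937 and 13030 aged cells with fewer transcripts.

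The neighbouring classes of the lineage did not all vary with age in the same way. Pdgfra-side precursors met the same 5-gene criterion and the same Mal and Trf limit but held more Pdgfra than Gpr17. They comprised 973 and 1083 cells in the young sections, against 872 and 1141 in the aged sections, so the ages overlapped. Precursors between the classes, which met neither rule, numbered 429 and 383 in young sections against 347 and 242 in aged sections, a ratio of 1.41 as a share of kept cells without overlap. Cells that met every criterion for commitment except the limit on Mal and Trf were also fewer, at 47 and 62 in young sections against 17 and 18 in aged sections, a ratio of cells of 3.11 beside 3.08 for members. Oligodendrocyte-like cells, set by their own markers, numbered 6519 and 6379 in young sections against 8424 and 8861 in aged sections.

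Set against these neighbours, committed precursors were 22.1% and 20.2% of all precursors under the Mal and Trf limit in young sections, and 11.2% and 6.49% in aged sections. For every 100 Pdgfra-side precursors there were 40.9 and 34.3 members at 2 months against 17.7 and 8.41 at 18 months. For every 1000 oligodendrocyte-like cells there were 61.1 and 58.3 members at 2 months against 18.3 and 10.8 at 18 months. None of these ratios overlapped between ages, each with an exact permutation p = 0.333.

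**Figure D1:**
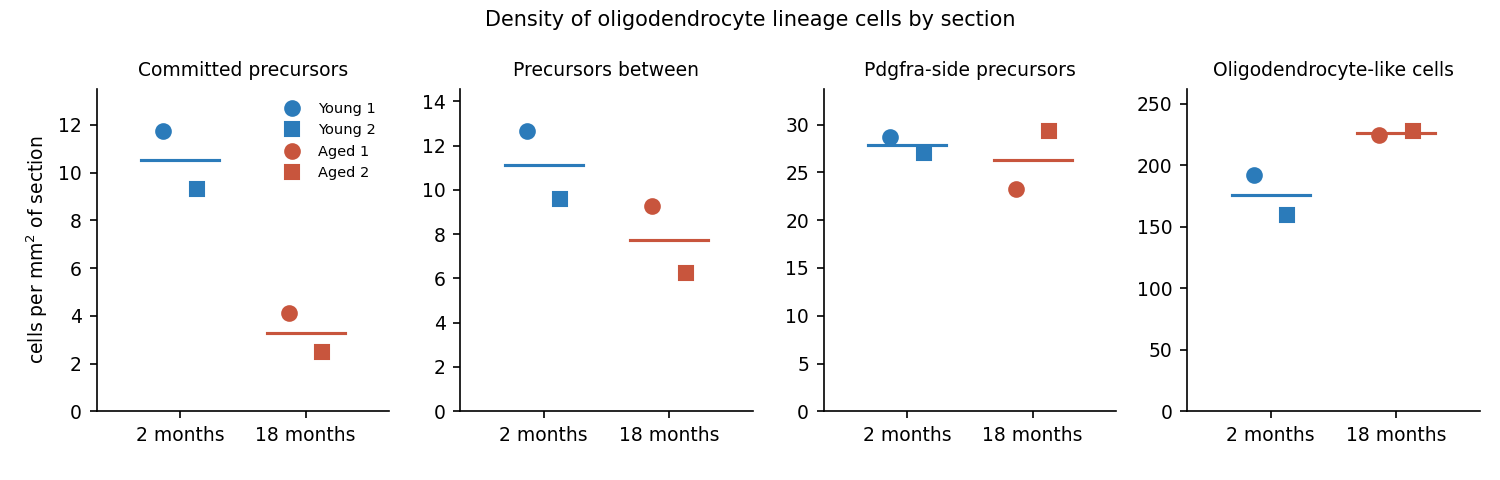
Density in cells per mm² of section for committed precursors, precursors between the classes, Pdgfra-side precursors and oligodendrocyte-like cells, each point 1 section and each line the mean of 2 sections. Committed precursors lie at 11.7 and 9.30 at 2 months and at 4.11 and 2.47 at 18 months, while Pdgfra-side precursors overlap between ages.

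The genes of the rule describe the members and were not tested. Gpr17 stood at 820.6 and 861.4 transcripts per 10000 of all transcripts in the members of the young sections, and at 899.4 and 738.3 in those of the aged sections. Pdgfra-side precursors also held Gpr17, at 177.4 to 210.6, and it was detected in 87.3% to 93.9% of them. Pdgfra stood at 40.9 and 44.0 in young and at 98.0 and 89.2 in aged members. Tnr, which encodes the matrix protein tenascin-R, ranged from 269.2 to 323.6 in members and from 159.1 to 186.0 in Pdgfra-side precursors. Olig1, a lineage transcription factor, ranged from 178.1 to 282.9 in members and from 362.0 to 399.9 in Pdgfra-side precursors.

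The share of members without any Pdgfra transcript was 65.6% and 62.6% in young sections against 39.6% and 42.7% in aged sections. The median member held 24.5 and 24 Gpr17 transcripts in young sections and 15 and 19.5 in aged sections. The median volume of a member was 639.7 and 620.5 µm³ at 2 months against 699.7 and 762.0 µm³ at 18 months, while that of all kept cells ranged from 697.5 to 727.7 µm³. That of Pdgfra-side precursors also rose without overlap, from 643.2 and 591.9 µm³ in young to 718.2 and 702.5 µm³ in aged sections. Just inside the threshold, 33 and 27 young and 16 and 7 aged members held 5 or 6 Gpr17 transcripts. Just outside it, 20 and 22 young and 13 and 11 aged cells held 4 and met every other criterion. Near the ratio limit, 57 and 54 young and 42 and 33 aged members had between 2 and 3 times as much Gpr17 as Pdgfra, and 290 and 216 young and 210 and 138 aged cells fell just short of it. Over all kept cells, with no rule applied, Gpr17 made up 10.7 and 10.9 of 10000 transcripts in young against 8.56 and 6.03 in aged sections.

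Members were scattered over the whole of each section. A white matter zone was set where at least 40% of the cells within 100 µm were oligodendrocyte-like, and a striatal zone where at least 30% were medium spiny neuron-like. White matter held 32 and 40 members in the young sections, against 12 and 8 in the aged sections. Striatum held 82 and 53 young and 34 and 17 aged members. The rest of the section, apart from a small zone of neuroblasts with 0 to 5 members, held 279 and 275 young and 108 and 70 aged members.

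Of the 3 larger zones, young white matter held members most densely, at 18.9 and 19.95 per mm², against 4.16 and 2.94 per mm² in aged white matter. Striatum held 8.71 and 5.33 per mm² at 2 months and 4.08 and 2.05 per mm² at 18 months. The rest held 11.5 and 9.39 per mm² at 2 months and 3.85 and 2.37 per mm² at 18 months. Ages did not overlap in any of these 3 zones, each with an exact permutation p = 0.333, beside 40 of all 52 measures without overlap. The young over aged ratio was 5.48 in white matter, 2.29 in striatum and 3.36 in the rest. The white matter zone covered 1.69 and 2.005 mm² in young against 2.885 and 2.725 mm² in aged sections. It was set by oligodendrocyte-like cells, which were more numerous at 18 months, and its larger area enters the density ratio. Striatum covered 9.41 and 9.94 mm² in young against 8.33 and 8.29 mm² in aged sections. Pdgfra-side precursors in white matter were also less dense at 18 months without overlap, at 35.5 and 33.4 per mm² in young against 16.6 and 26.4 per mm² in aged sections, a ratio of 1.60. Per 100 Pdgfra-side precursors of the same zone, the ratio for members was 3.13 in white matter, 2.08 in striatum and 3.07 in the rest, so that white matter and the rest were close on this scale. The difference between zones was not tested.

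Within a section, the share of committed precursors in each zone was compared with that of Pdgfra-side precursors. The white matter share was higher by 1.87 and 4.57 percentage points at 2 months, and by 2.29 and 2.02 points at 18 months. The mean difference was 2.69 points ± 1.26 (SD, n = 4), with a two-sided exact sign-flip p = 0.125, the smallest that 4 sections allow, and 0.25 after adjustment over 4 zones. The share in the rest of the section was lower in all 4 sections, with differences of -5.44 and -0.22 points at 2 months and -7.62 and -8.06 points at 18 months. Its mean difference was -5.34 points ± 3.60 (SD, n = 4), with the same exact sign-flip p = 0.125 and adjusted value of 0.25. In striatum the difference took both signs, from -4.50 to 5.45 points (exact sign-flip p = 0.375). Another member lay within 30 µm of 14.1% and 12.6% of members at 2 months and of 7.79% and 4.17% at 18 months, alongside the lower density. Of Pdgfra-side precursors, 12.02% and 12.8% in young sections against 9.06% and 10.2% in aged sections had another of their own class that near. Members with another that near numbered 56 and 47 in young against 12 and 4 in aged sections. Some lay very close, such as a group in Young 1 centred at x 6.093 to 6.104 mm and y 3.317 to 3.326 mm. A pair in Aged 2 was centred at x 1.428 and 1.441 mm, both at y 4.536 mm. A cell that segmentation cut apart would count more than once, here and in the counts of members, and this was not tested.

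**Figure D2:**
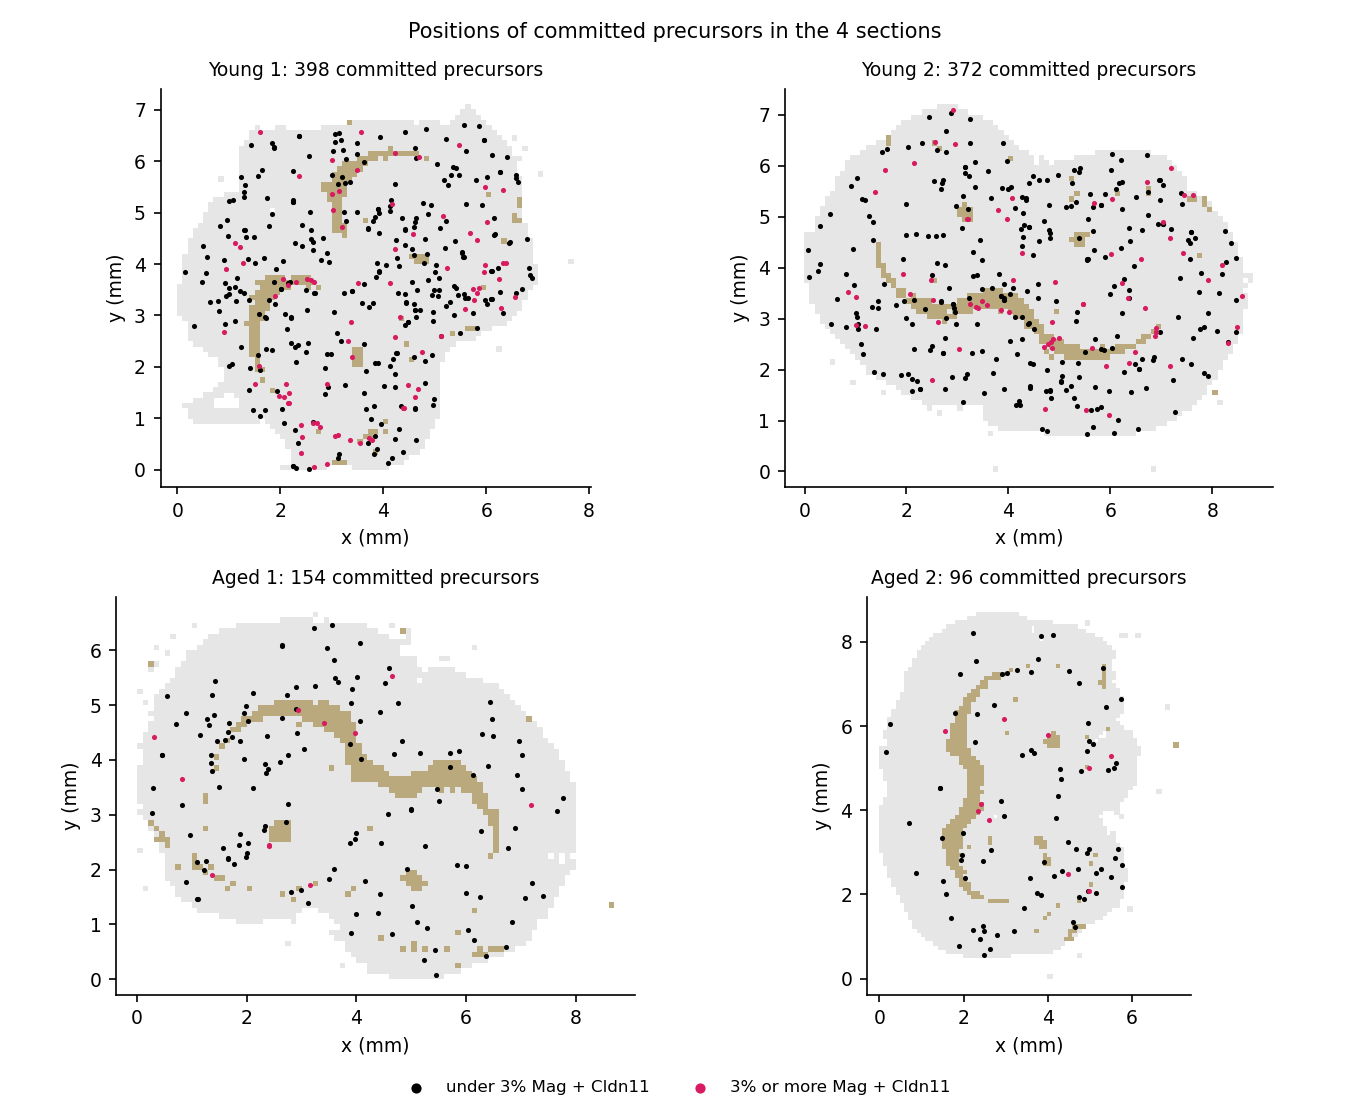
Positions in mm of all committed precursors in the 4 sections, on squares of 100 µm that held kept cells, tan where at least 40% of these were oligodendrocyte-like and grey elsewhere. Members with 3% or more of their transcripts from Mag and Cldn11 are pink, 83 and 71 in the young and 11 and 10 in the aged sections, and the others are black.

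Committed and Pdgfra-side precursors were then compared gene by gene within sections, over the 376 genes that the rule did not use. Levels below are transcripts per 10000 of these 376 genes, from counts pooled per class and section. Both classes were cut from the same counts that are compared here, and Sirt2 and Mag were named as markers with results of these data known, so levels are given as a description without single-gene tests. By edgeR, 101 of 366 genes tested were called, or 27.6%, with 43 higher (11.7%) and 58 lower (15.8%) in members, and nothing is read from that count. Without the first or the second young section the count was 34 or 57. Over all 366 genes, 185 log2 differences lay above 0 and 181 below, with a median of 0.00, and the lists are described on that scale.

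Of 11 genes listed for myelin and the maturing oligodendrocyte, Sirt2 and Mag among them, 10 had a log2 difference above 0 and 1 below, with a median of 0.98. Sirt2 encodes a cytoplasmic deacetylase found in oligodendrocytes, and lies on chromosome 7 at 28766735 to 28788661 (GRCm38). Its level was 314.5 and 359.2 in young members against 176.1 and 289.6 in aged members, and 31.2 to 50.8 in Pdgfra-side precursors. Oligodendrocyte-like cells held only 53.1 to 110.0, so each of the 4 sections had more Sirt2 in members than in Pdgfra-side precursors or oligodendrocyte-like cells. Precursors between the classes and cells past the Mal and Trf limit are not compared here.

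Mag encodes myelin-associated glycoprotein and lies on the same chromosome at 30899176 to 30914873. Its level was 111.7 and 81.6 in young members against 42.5 and 50.4 in aged members, and 3.98 to 7.52 in Pdgfra-side precursors. Cldn11 encodes claudin-11, the protein of tight junctions in myelin, and lies on chromosome 3 at 31149920 to 31164324. Its level was 150.9 and 145.7 in young members against 61.1 and 67.0 in aged members, and 4.72 to 7.004 in Pdgfra-side precursors. The fold over Pdgfra-side precursors ran from 6.70 to 28.1 for Mag and from 9.56 to 32.0 for Cldn11 over the 4 sections. Mag and Cldn11 are markers by which oligodendrocyte-like cells were set, and reached 374.3 to 457.1 and 422.7 to 555.5 in that class.

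As a check of the label, with the 2 markers named above, Mag was detected in 36.7% and 38.4% of young and 24.0% and 34.4% of aged members, so that most members held no Mag transcript. Of Pdgfra-side precursors, 4.93% to 10.2% held Mag. Sirt2 was detected in more members than Pdgfra-side precursors within every section. The shares were 83.7% against 62.1% and 88.4% against 62.5% in young sections, and 64.3% against 42.7% and 76.0% against 65.0% in aged sections. Many Pdgfra-side precursors thus held Sirt2 as well, and its detection alone did not set single cells apart. With every cell thinned to 100 transcripts, Sirt2 was detected in 49.6% to 78.5% of members and in 25.3% to 38.8% of Pdgfra-side precursors, against 6.35% to 9% of medium spiny neuron-like cells.

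By fold over Pdgfra-side precursors, the other genes of the list stood below Sirt2, Mag and Cldn11 in every section. Opalin, expressed in myelinating oligodendrocytes, was at 2.44 to 5.20 in members and 1.51 to 3.12 in Pdgfra-side precursors, against 101.9 to 131.4 in oligodendrocyte-like cells. Mobp, a component of compact myelin, was at 8.61 to 23.6 in members and 6.52 to 9.22 in Pdgfra-side precursors. Tspan2, a tetraspanin of the oligodendrocyte lineage, was at 80.6 to 137.1 in members and 37.7 to 47.2 in Pdgfra-side precursors. Dbndd2 was at 70.6 to 79.6 against 23.3 to 25.9, and the 2 classes did not overlap. Il33, the gene of the list with a log2 difference below 0, was at 7.53 to 14.0 against 8.24 to 15.7.

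Of 7 progenitor genes, 5 had a log2 difference below 0 and 2 above, with a median of -0.55. Ptprz1, a receptor tyrosine phosphatase of glial progenitors on chromosome 6 at 22875502 to 23052916, was at 194.8 and 210.2 in young members against 331.6 and 249.6 in aged members. Pdgfra-side precursors held 449.9 to 593.7 of it. Fabp7, Hes5 and Id2, which encode a fatty acid-binding protein of neural progenitors, a target of Notch and an inhibitor of differentiation, were lower in members in 4 of 4 sections.

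Of 10 cell division genes, 6 had a log2 difference below 0 and 4 above, with a median of -0.37. Top2a, the topoisomerase of dividing cells, was at 1.40 and 0.41 in young members against 4.88 and 0.33 in aged members, from 20, 5, 17 and 1 transcripts. Pdgfra-side precursors held 21.3 and 20.1 in young sections against 7.48 and 3.49 in aged sections. Cdkn1c, an inhibitor of the cell cycle, was at 7.11 to 8.89 in members against 2.98 to 4.18.

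In the cytoskeleton and transcription list, 4 of 9 log2 differences lay above 0 and 5 below, with a median of -0.13. Map1b, a microtubule-associated protein of growing processes, was at 320.2 to 438.6 in members and 193.1 to 244.6 in Pdgfra-side precursors. Sox4, a transcription factor of immature cells, was at 20.7 to 35.3 against 11.8 to 17.9, and its relative Sox11 was at 13.2 to 18.9 against 21.8 to 30.1. Among 5 genes of the PDGF and growth factor list, 3 lay above 0 and 2 below (median 0.02). Pdgfa, a ligand of the receptor that members lack or hold at a low level, was at 14.0 to 35.3 in members and 8.45 to 11.6 in Pdgfra-side precursors. Of 10 age and immune genes, 7 lay below 0 and 3 above, with a median of -0.26.

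Among the genes with the largest differences outside the lists, Mmp9, a matrix metalloproteinase, was at 7.48 to 9.75 in members and 1.99 to 3.31 in Pdgfra-side precursors. Pfn2, an actin-binding profilin, was at 239.0 to 317.7 against 107.8 to 145.2. F3, which encodes tissue factor, was at 12.6 to 34.4 against 42.5 to 49.998, and Cp, which encodes ceruloplasmin, was at 6.25 to 19.2 against 26.4 to 37.8.

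**Figure D3:**
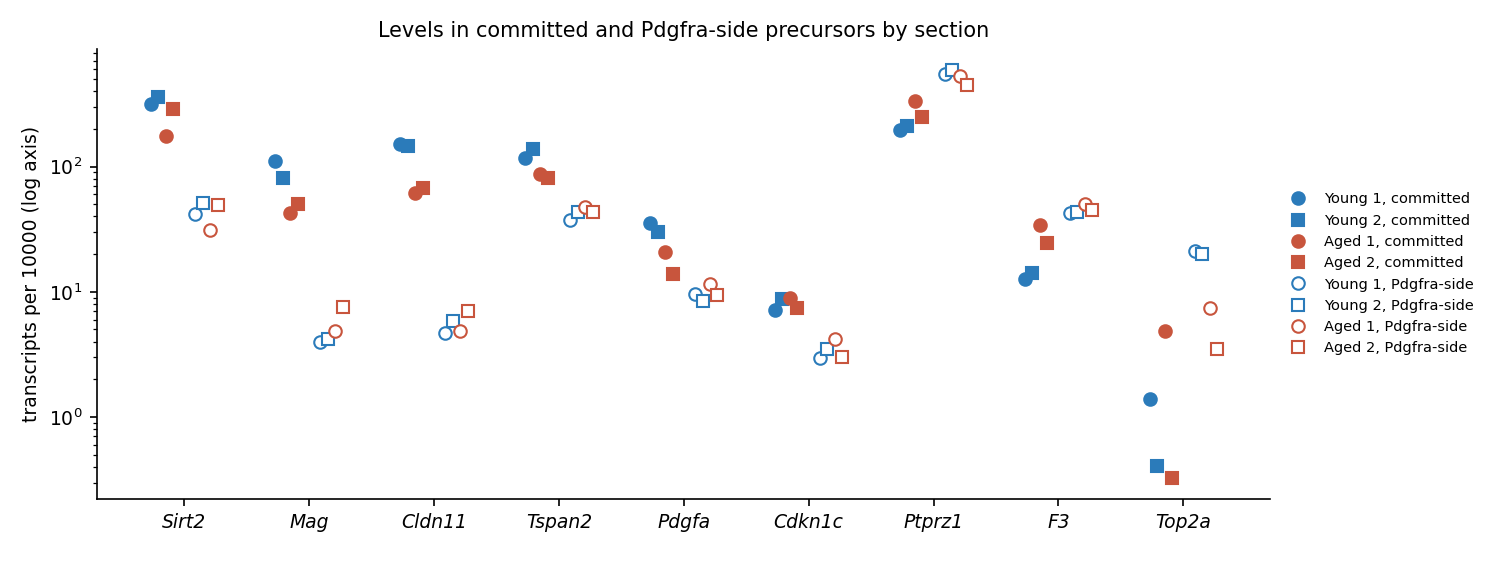
Transcripts per 10000 of the 376 genes outside the rule, on a log axis, for 9 genes in committed precursors (filled) and Pdgfra-side precursors (open), each point 1 section. Sirt2, Mag, Cldn11, Tspan2, Pdgfa and Cdkn1c lie higher and Ptprz1, F3 and Top2a lower in committed precursors within every section.

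Markers of other cell types were present in members, as they were in Pdgfra-side precursors. The astrocyte list of 7 genes summed to 290.2 and 357.1 per 10000 in young against 464.2 and 404.0 in aged members. The list of 9 medium spiny neuron genes summed to 299.9 and 258.1 in young members against 370.1 and 364.1 in aged members. Over all 376 genes outside the rule, both aged sections lay above both young ones for 23.9% and below them for 17.0%. Both aged sections lay above for 5 of the 9 medium spiny neuron genes and for 2 each of 7 astrocyte, 7 neuron, 9 microglia, 4 neuroblast and 4 fibroblast genes. They lay below for 4 of the 7 neuron genes and for 0 genes of the other lists. The neuron list summed to 685.9 to 739.0, the microglia list to 41.4 to 58.8, the vascular list to 27.8 to 55.6, the neuroblast list to 70.5 to 95.6 and the fibroblast list to 10.2 to 18.4. No marker of these lists was at 0 in any section. Per 10000 of all transcripts, the astrocyte list summed to 249.3 to 389.6 in members, 469.9 to 500.1 in Pdgfra-side precursors and 284.4 to 354.2 in all kept cells. The medium spiny neuron list summed to 221.5 to 314.3, 236.6 to 281.7 and 512.7 to 671.1 in the same order. The neuron list summed to 575.8 to 634.9, 533.0 to 658.0 and 1299.9 to 1481.3. Members with 3 or more markers of another class, called mixed cells, made up 82.4% and 72.0% in young sections against 86.4% and 85.4% in aged sections. Most kept cells of any kind were mixed by this measure. Only 5760 of 68011 and 7573 of 70774 young and 9925 of 68415 and 8793 of 74624 aged kept cells were not. Leaving them out kept 70 and 104 young and 21 and 14 aged members, and the young over aged ratio of their share of all kept cells was then 5.05. As a share of the 5760 and 7573 young and 9925 and 8793 aged kept cells that were themselves not mixed, the ratio was 6.98.

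Within committed precursors, Cldn11 fell with age, from 150.9 and 145.7 per 10000 in the young sections to 61.1 and 67.0 in the aged sections. The log2 change was -1.29 ± 0.16 (SE), and the quasi-likelihood test of edgeR gave an adjusted p = 0.0135. It was the 1 gene called of 328 tested, or 0.305%, and 36 genes had an unadjusted p under 0.05. DESeq2 called 3 genes (Cldn11, Mag and F3) and limma called 1, again Cldn11. The log2 change of Cldn11 was -1.24 without the first and -1.30 without the second aged section, where the call was lost (adjusted p = 0.115 and 0.0844). Without the first or the second young section 8 or 4 genes were called, Cldn11 among them. With mixed cells left out no gene was called (7 had an unadjusted p under 0.05), and the change of Cldn11 was -0.68 with an adjusted p = 0.601. The adjusted p of Cldn11 over all alternatives ran from 4.37e-08 to 0.601.

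The other myelin genes mostly had a negative log2 change without passing the test, but only some were lower in both aged sections than in both young ones. Of 11 in the list, Cldn11 among them, 9 had a negative log2 change, as did 171 of all 328 genes tested. The median was -0.22 in the list beside -0.02 over all 328 genes. Mag, with the levels given above, had a log2 change of -1.13 ± 0.21 (SE, adjusted p = 0.107, edgeR). Tspan2 was at 116.3 and 137.1 in young members against 87.8 and 80.6 in aged members (-0.66 ± 0.18, adjusted p = 0.169, edgeR). For these genes both aged sections lay below both young ones, as they did for 17.0% of all 376 genes outside the rule, with 23.9% the other way. Sirt2 also had its lower values in the aged sections, at 176.1 and 289.6 against 314.5 and 359.2 (-0.62 ± 0.21, adjusted p = 0.302, edgeR). Dbndd2 was lower in both aged sections as well, whereas Mobp, Gatm, Cryab and Phldb1 overlapped between ages. Opalin and Il33 had log2 changes of 0.67 and 0.53, and for both genes the aged sections lay above the young ones.

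None of the 7 progenitor genes was called with age (median 0.26), and Ptprz1 stood at 331.6 and 249.6 in aged against 194.8 and 210.2 in young members, with an adjusted p = 0.397 by edgeR. None of the 10 age and immune genes was called (median 0.13). C4b, a complement component, was at 3.70 and 3.004 in young members against 7.46 and 8.13 in aged members (log2 change 1.14 ± 0.30 SE, adjusted p = 0.169, edgeR). B2m, the light chain of MHC class I, was at 6.49 and 8.20 in young members against 18.1 and 11.1 in aged members (0.93 ± 0.33, adjusted p = 0.323, edgeR). None was called of the 9 cytoskeleton and transcription genes (median -0.35), the 10 cell division genes (median -0.01) or the 5 PDGF and growth factor genes (median 0.00). Pdgfa was at 35.3 and 30.04 in young members against 20.7 and 14.0 in aged members (-0.98 ± 0.27, adjusted p = 0.203, edgeR). The astrocyte and medium spiny neuron sums of members given above moved with age beside these values, and their part in them was not tested.

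**Figure D4:**
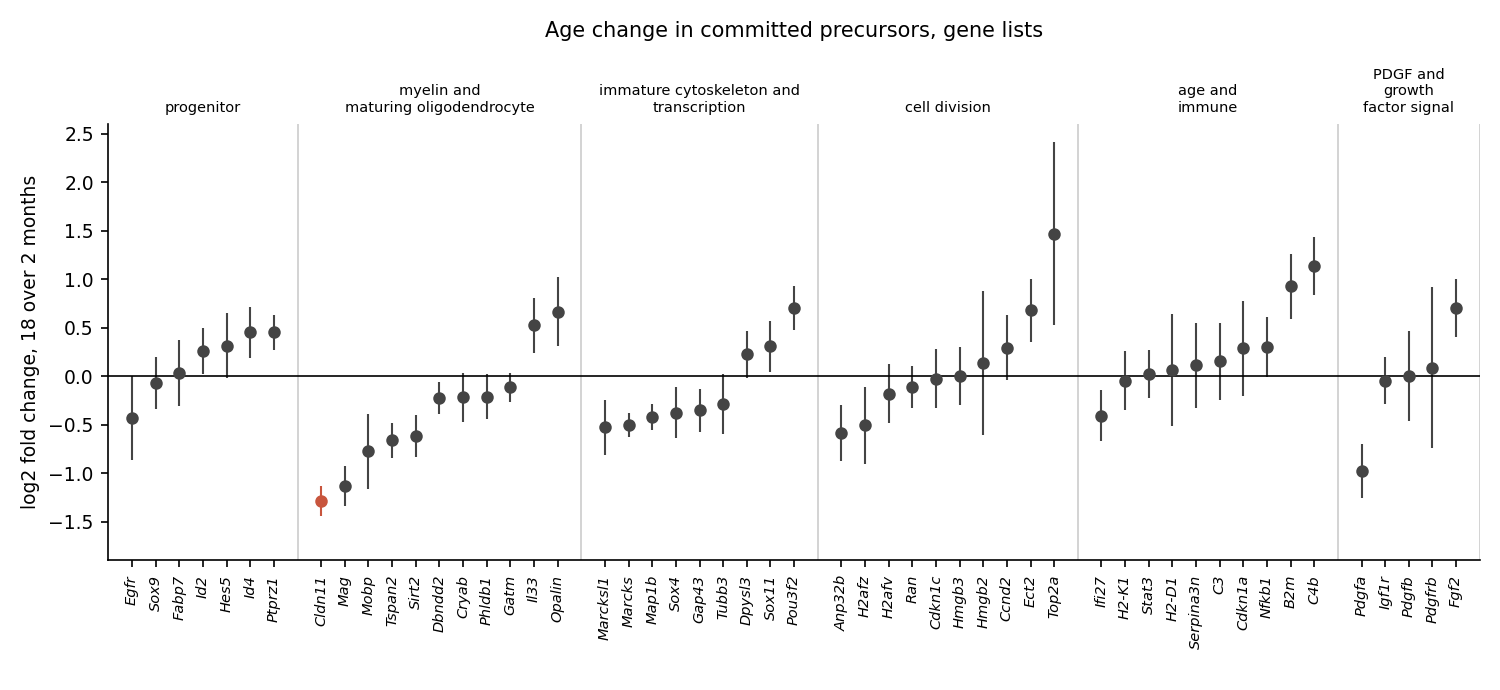
Log2 fold change from 2 to 18 months in committed precursors for the genes of 6 lists, each point 1 gene with its standard error from edgeR and n = 2 sections per age. Cldn11, in red, passed the test, and 9 of 11 genes of the myelin list lie below 0, beside 171 of all 328 genes tested.

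The same counts of Mag and Cldn11 can be given as a share of cells, which is no separate evidence. With every member thinned to 100 transcripts, both genes were detected in 23.9% and 24.0% of young and in 9.16% and 11.9% of aged members. Medium spiny neuron-like cells, which should lack both genes, held Mag in 2.45% to 2.85% and Cldn11 in 2.2% to 2.75% of cells at that depth. Among members with both genes before thinning, 93.9% and 90.4% in young sections against 92.6% and 84.6% in aged sections held no Pdgfra. Among members with neither gene, 42.3% and 38.1% in young sections against 21.7% and 20.7% in aged sections held no Pdgfra.

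Members in which Mag and Cldn11 made up 3% or more of transcripts, a limit chosen after the values were seen, numbered 83 and 71 in young sections against 11 and 10 in aged sections. They were 20.9% and 19.1% of young and 7.14% and 10.4% of aged members. The members under that limit also did not overlap between ages, at 315 and 301 in young sections against 143 and 86 in aged sections. Per area, the young over aged ratio was 7.67 for the Mag and Cldn11-rich members and 2.79 for the others. With the rich members left out, no gene was called between ages by edgeR (29 had an unadjusted p under 0.05), a choice made on Mag and Cldn11 themselves. The log2 change of Cldn11 was then -0.60.

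**Figure D5:**
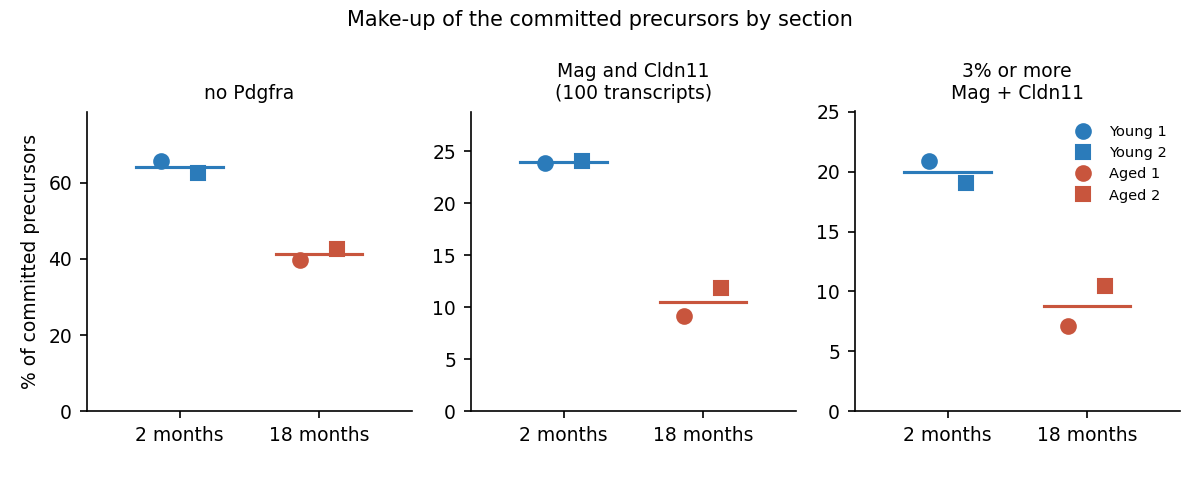
Percent of committed precursors without Pdgfra, with both Mag and Cldn11 after thinning to 100 transcripts, and with 3% or more Mag and Cldn11, each point 1 section and each line the mean of 2. Young sections lie above aged sections in all 3 panels, for example at 23.9% and 24.0% against 9.16% and 11.9% in the middle panel.

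Whether age changed genes differently in committed than in Pdgfra-side precursors was tested by the interaction of class and age, with the section as a block. By edgeR, 10 of 366 genes were called, or 2.73%, with 6 (1.64%) having the more negative change in members and 4 (1.09%) the more positive one. The myelin list held 3 of the 6, Mag, Cldn11 and Tspan2. All 11 of its genes had a negative difference (median -0.29), beside 171 of all 366 genes tested (median 0.04). The list was chosen with earlier results of these data known, so this count is a description. A negative difference is not by itself a fall in members, where Opalin and Il33 had log2 changes of 0.67 and 0.53. Mag was at 3.98 and 4.17 in young against 4.88 and 7.52 in aged Pdgfra-side precursors, and the difference of the log2 changes was -1.67 ± 0.23 (SE, adjusted p = 0.0109, edgeR). For Cldn11 it was -1.41 ± 0.20 and for Tspan2 -0.78 ± 0.11, both with an adjusted p = 0.0109 by edgeR.

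Pdgfa, Map1b and Stmn2 made up the others. Pdgfa was at 9.53 and 8.45 in young against 11.6 and 9.48 in aged Pdgfra-side precursors, whereas members held 35.3 and 30.04 at 2 months against 20.7 and 14.0 at 18 months (difference -1.17 ± 0.21 SE, adjusted p = 0.0211, edgeR). Map1b was at 396.8 and 438.6 in young members against 334.8 and 320.2 in aged members. In Pdgfra-side precursors it was at 193.1 and 207.5 at 2 months and 244.6 and 212.3 at 18 months. Stmn2, a stathmin that is also among the neuron markers, was at 72.3 and 92.3 in young members against 43.3 and 55.3 in aged members.

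On the positive side, Ptprz1 had a difference of 0.72 ± 0.09 (SE, adjusted p = 0.0109, edgeR), and its level in Pdgfra-side precursors was 547.1 and 593.7 in young sections against 524.2 and 449.9 in aged sections. F3 was at 12.6 and 14.2 in young members against 34.4 and 24.7 in aged members. In Pdgfra-side precursors it was at 42.5 and 43.3 at 2 months and 49.998 and 45.3 at 18 months. Ect2, a gene of cytokinesis, was at 3.14 and 3.004 in young members against 5.16 and 5.20 in aged members, but at 10.9 and 12.7 in young against 4.50 and 5.26 in aged Pdgfra-side precursors. Pde10a, a phosphodiesterase and medium spiny neuron marker, was at 67.5 and 50.5 in young members against 77.7 and 81.6 in aged members. Of the other lists, 1 of 7 progenitor, 1 of 9 cytoskeleton, 1 of 10 cell division, 0 of 10 age and immune and 1 of 5 growth factor genes were called. Without the second young section 2 of the 10 calls remained, Mag and Cldn11, and without the first aged section the count was 20. With mixed cells left out, 1 gene was called (Marcks), and it was none of the 10. With Mal and Trf under 1%, 6 of the 10 calls remained, and Mag (-1.11, adjusted p = 0.202, edgeR), Cldn11 (-0.92, adjusted p = 0.322, edgeR), F3 and Pde10a were lost. With the members rich in Mag and Cldn11 left out, 13 genes were called and 6 of the 10 remained, with Mag, Tspan2, Pdgfa and Map1b lost.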

How the data were processed

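MERFISH of 4 sections was used, grouped by title and age label. The authors decoded and segmented the images and deposited, per cell, an unnormalized count of each of 383 genes, a volume signal in µm³ and a position, taken here as µm. The deposited tables of the young sections carry other section numbers inside than their titles, and the titles were followed. A deposited table by the authors with the mean count per gene served only to check the reading. Cells with under 10 genes or a volume under 50 were dropped, following the methods of the study. Segmentation can assign transcripts of touching cells to one another, doublets were not called, and cells are not replicates: counts were summed per class and section.

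Ages and classes were compared with edgeR 4.0.16 (TMM, filterByExpr, quasi-likelihood, Benjamini-Hochberg, threshold 0.05) in R 4.3.3, with the 7 rule genes left out of the fit and library size. DESeq2 1.42.0 and limma 3.58.1 were alternatives, all tested on simulated data. Single values had exact tests. Named genes were 6 fixed lists plus up to 10 genes each way with the largest called change, of which some are given. The members and lists were chosen with earlier results of these data known. Other steps used Python 3.11.15, numpy 2.4.6 and scipy 1.17.1. The files give gene symbols alone, so locations are those of GENCODE for GRCm38.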

Additional observations from a re-analysis of the deposited data

Results flagged for a closer look

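Of 366 genes, 10 had an age change that differed between committed and Pdgfra-side precursors by edgeR's interaction test. The log2 change in committed minus that in Pdgfra-side precursors was -1.41 for Cldn11, -1.67 for Mag, 0.72 for Ptprz1, -0.78 for Tspan2, -0.56 for Map1b, -0.79 for Stmn2, 2.00 for Ect2, -1.17 for Pdgfa, 0.97 for F3 and 0.75 for Pde10a. Stmn2 and Pde10a are also on the neuron and medium spiny neuron marker lists, and the part of such markers in these differences was not tested.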

How the results depend on the processing

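The lower share of committed precursors in aged sections, among kept cells and among precursors, and the higher white matter share kept their direction in all alternatives run, with no test able to pass its threshold. The age difference in the share of kept cells ran from -0.427 to -0.330 points when a section was left out. Replicate numbers only name the sections: same-numbered sections' deviations correlated at -0.0728, and with a replicate block the difference stayed at -0.379 points (exact p = 0.5) and at -12.3 points of precursors. The replicate block gave 2 calls for age in place of 1 and 3 for the difference of age changes in place of 10.

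Against Pdgfra-side precursors, 101 genes were called, 66 with mixed cells left out and 64 without the section block, and from 34 to 109 with a section left out, with 34 without the first and 57 without the second young section. For age, the count went from 1 to 3 by DESeq2 and with a Gpr17 minimum of 8, to 5 with Mal and Trf under 1%, to 0 with mixed cells left out or, as an alternative added after the data were seen, without members rich in Mag and Cldn11, and from 0 to 8 with a section left out (0 without either aged section, 8 without the first and 4 without the second young section). For the difference of age changes it was 1 with mixed cells left out, 6 with Mal and Trf under 1%, and from 2 (without the second young section) to 20 (without the first aged section) with a section left out. The difference of age changes was not run with the sections thinned to equal depth. With mixed cells left out, Ptprz1 turned to -0.094 and Pde10a to -0.69, with 21 and 14 aged members. The causes were not tested. Members numbered 96 to 398 per section with a median of 225 to 317.5 transcripts, and a difference that was not called at this depth is not shown to be absent.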
